A study of Mus musculus with 8 samples.

Results

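Endothelial genes encode the receptors, junction proteins and transcription factors by which the lining of blood vessels is recognised, and 10 of them were followed here in cells sorted from the mouse forelimb: the receptor genes Kdr, Tek and Tie1, the adhesion genes Cdh5, Pecam1 and Esam, the surface genes Emcn and Plvap, and the SoxF factor genes Sox17 and Sox18. They were chosen by symbol out of 19057 genes that the platform annotation names, and every probe assigned to them was taken, 15 of 45281 in all. The samples were 4 HomoBapx1 and 4 WTBapx1 forelimb cell preparations at E12.5, of mixed strain C57BL/6J;129, sorted for EGFP fluorescence and hybridised to MouseWG-6 v2.0 arrays. HomoBapx1 embryos were homozygous for an allele (tm4.Tlu) in which EGFP follows the start codon of Bapx1 (Nkx3-2), a homeobox gene of cartilage precursors, and removes its function. WTBapx1 embryos carried an intact Bapx1 whose 3′ untranslated end held EGFP after an internal ribosome entry site (tm2.Tlu, written as heterozygous by the study). Every group therefore carried EGFP at this locus, and the design and the number of copies of the reporter cannot be told apart from the genotype. Cells were sorted on fluorescence from the Bapx1 locus, and no endothelial surface marker is named for the gate.

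Vessels invade the limb bud early and are remodelled around the condensing cartilage, which itself stays free of vessels. Endothelial cells receive VEGF through Kdr, the principal VEGF receptor, and angiopoietins through Tek (Tie2), a receptor that works together with its relative Tie1. They hold together through VE-cadherin (Cdh5), PECAM1 and ESAM, while Sox17 and Sox18, together with Sox7, drive arterial, venous and lymphatic programmes. Emcn encodes endomucin, a sialoglycoprotein of capillaries and veins, and Plvap a protein of the diaphragms that span fenestrae and caveolae.

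The sorted cells carried the markers of cartilage precursors in both genotypes. Sox9, the master factor of chondrogenesis, averaged 14.05 in HomoBapx1 and 14.03 in WTBapx1 arrays on the normalised log2 scale, and Col2a1, the main cartilage collagen gene, 12.88 and 12.56, with no call for either. None of 7 listed cartilage genes was called, but 3 had an unadjusted limma p under 0.05, against 19.1% of all genes, and 1 change was negative. Their median log2 change was 0.20. Their mean level did not overlap between the groups, at 9.86 to 9.93 in HomoBapx1 and 9.68 to 9.79 in WTBapx1 arrays. A probe counted as detected on an array where its detection p-value was under 0.05, and the lowest level reached by any detected probe lay between 5.03 and 5.15 log2 over the 8 arrays. Bapx1 itself was detected on every HomoBapx1 array, at 7.77 to 8.10 by one probe and 7.37 to 7.72 by the other, and was not above background on any WTBapx1 array. The position of either probe with respect to the EGFP insert is not given in the sources used here, so they do not check the labels. HomoBapx1 replicates 2 and 3 stood apart from the other arrays: their Xist levels were 9.004 and 6.59, against 11.27 and 11.60 in HomoBapx1 replicates 1 and 4 and 10.58 to 12.03 in WTBapx1 arrays, and their mean levels of 3 Y-linked genes were 9.26 and 9.40, against 8.42 to 8.60 and 8.05 to 8.48. The replicates are biological according to the study, but whether embryos were pooled, and on which chips the arrays lay, is not given in the sources used here.

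Of the 15 probes 7 were detected on all 8 arrays, 1 on 7 arrays, 2 on 1 or 2 arrays and 5 on none. Probes of 1 gene differed in detection too (Cdh5 and Pecam1), so detection was not read as a level between genes. The 8 probes detected on at least 4 arrays, which represent 7 of the 10 genes, entered the comparison of the genotypes. In limma's moderated test with adjustment over all 20593 probes kept by that rule, 3 of these 8 were lower in HomoBapx1 than in WTBapx1 cells (Esam, Sox18 and Cdh5), none was higher, and 5 had an adjusted p of 0.05 or more. Over all kept probes, 2.12% were called lower and 1.83% higher. At an unadjusted p under 0.05 there were 6 of the 8, all lower, against 8.94% of all kept probes lower and 8.50% higher. Counted by the brightest probe of each gene, 3 of 7 members were called lower, against 2.71% of 11037 genes called lower and 2.20% called higher. The median log2 change of the 7 members was -0.44, against 0.0125 over all genes, and 6 of the 7 changes were negative. In bulk samples such as these, fewer endothelial cells in the sort and less RNA per endothelial cell cannot be told apart. Neither can be told apart from a lower share of other cells that make the same transcripts. All 3 calls were lost when arrays were scaled by their median absolute deviation, which the study's methods name, in place of quantile normalisation, and also with the mean Y-linked level as a term, although each change stayed negative. That scaling called 84 probes lower and 31 higher in HomoBapx1 cells, against 436 and 376 after quantile normalisation. Without HomoBapx1 replicate 2, only 1 of the 8 member probes, that of Esam, passed.

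**Figure D1:**
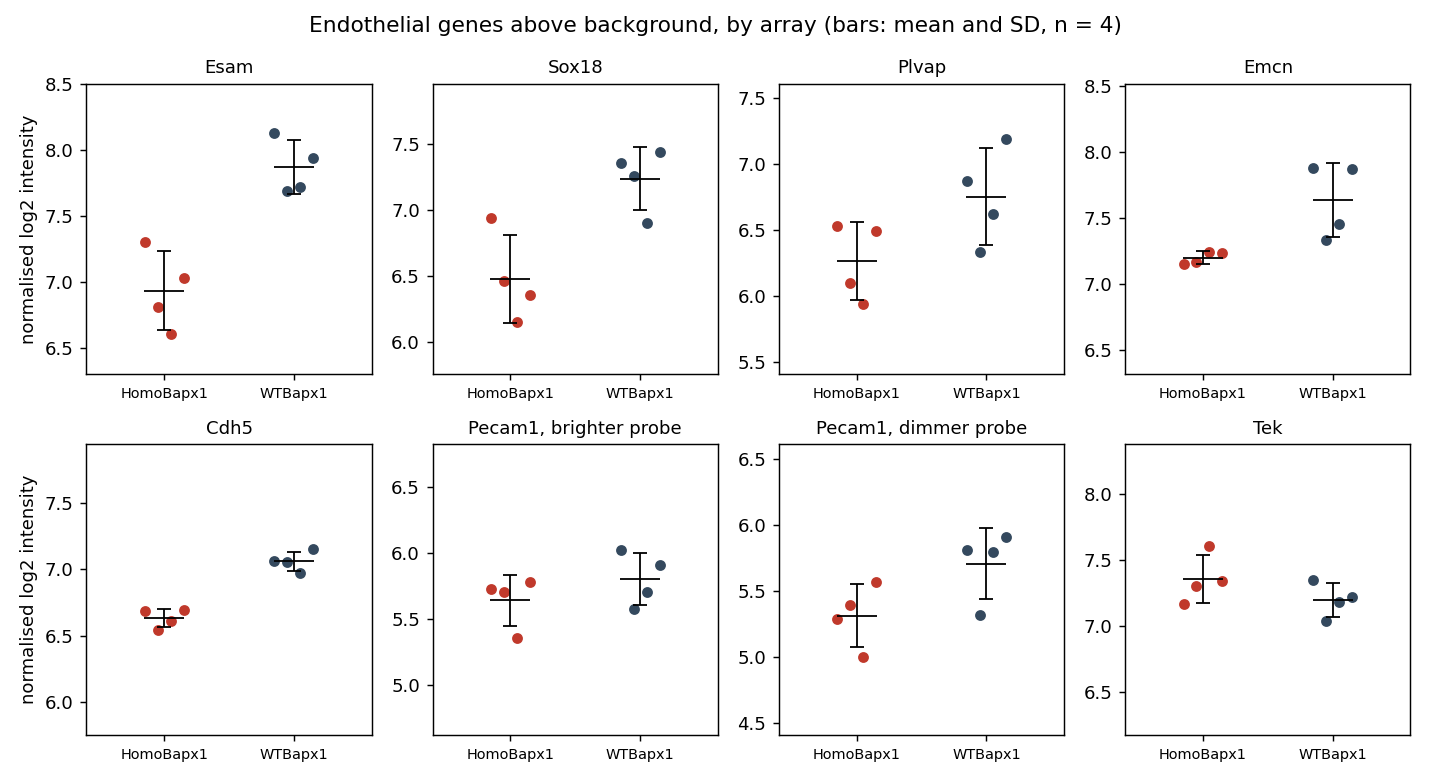
Normalised log2 intensity (vertical axes, each spanning the same range) of the 8 endothelial probes above background, with HomoBapx1 arrays in red at the left and WTBapx1 arrays in dark blue at the right of each panel. Points are single arrays in replicate order and bars show the mean and SD (n = 4). For Esam, Emcn and Cdh5 no HomoBapx1 array reached the lowest WTBapx1 array, whereas for Sox18, Plvap, Pecam1 and Tek the groups overlapped.

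Among the adhesion genes Esam showed the largest change of the 8 probes. Esam encodes an immunoglobulin-like molecule of endothelial tight junctions that is also carried by platelets. Its log2 intensity was 7.30, 6.81, 6.60 and 7.03 in HomoBapx1 replicates 1 to 4, against 8.13, 7.69, 7.72 and 7.94 in WTBapx1 replicates 1 to 4. Every HomoBapx1 array lay below every WTBapx1 array, as it did for 3 of the 8 member probes and for 6.39% of all kept probes. The change was -0.93 ± 0.16 (SE, limma adjusted p = 0.012), so that Esam was 1.91-fold lower in HomoBapx1 cells. Without HomoBapx1 replicates 2 and 3, its lowest arrays, Esam still passed at -0.70 (adjusted p = 0.036). With median absolute deviation scaling the change was -0.88 (adjusted p = 0.28) and with the Y-linked term -0.62 (adjusted p = 0.080).

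Cdh5, the cadherin of endothelial adherens junctions and the most restricted marker of the adhesion genes, changed less but with little spread. Its brighter probe gave 6.69, 6.54, 6.61 and 6.69 log2 in HomoBapx1 arrays, against 7.07, 7.05, 6.97 and 7.15 in WTBapx1 arrays. The groups did not overlap, and the SD was 0.070 in HomoBapx1 and 0.074 in WTBapx1 arrays. Cdh5 fell by 0.43 ± 0.075 on the log2 scale (SE, limma adjusted p = 0.014), a 1.34-fold lower level in HomoBapx1 cells. The call was lost without HomoBapx1 replicate 2 (-0.40, adjusted p = 0.054) and without replicates 2 and 3 (-0.37, adjusted p = 0.070). It was also lost in the log2 values that the authors deposited (-0.315, limma adjusted p = 0.10). The other Cdh5 probe was not detected on any array.

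Pecam1, which encodes the adhesion molecule CD31 of endothelium, platelets and leukocytes, was near background and did not pass the test. By its brighter probe it read 5.73, 5.71, 5.36 and 5.78 log2 in HomoBapx1 arrays, against 6.02, 5.58, 5.71 and 5.91 in WTBapx1 arrays, a change of -0.16 with a 95% interval from -0.44 to 0.12 (limma adjusted p = 0.59). The dimmer probe, detected on 3 HomoBapx1 and 4 WTBapx1 arrays, read 5.29, 5.40, 5.005 and 5.57 in HomoBapx1 arrays, against 5.81, 5.32, 5.80 and 5.91 in WTBapx1 arrays, a change of -0.39 with an interval from -0.74 to -0.047 (adjusted p = 0.23). In both probes HomoBapx1 replicate 3 was the lowest of all arrays, and the groups overlapped. The remaining Pecam1 probe was not detected on any array. With the Y-linked term the brighter probe turned to 0.052 (adjusted p = 0.88).

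The change of Esam was larger than that of Cdh5. On each array the Esam level minus the Cdh5 level was taken, which leaves only how the difference moves between genotypes. It was 0.61, 0.26, -0.011 and 0.33 in HomoBapx1 arrays, against 1.06, 0.63, 0.75 and 0.79 in WTBapx1 arrays. The HomoBapx1 mean of 0.30 ± 0.26 lay below the WTBapx1 mean of 0.81 ± 0.18 (SD, n = 4 each), a difference of -0.51 (exact two-sided permutation test over 70 assignments of the arrays, p = 0.029). The exact p was 0.057 without HomoBapx1 replicate 3 (-0.40) and without any one of the 4 WTBapx1 arrays (-0.43 to -0.57), and without HomoBapx1 replicates 2 and 3 it was -0.33 (exact p = 0.13). Of 3 planned pairs this was the only one run: Sox18 with Sox17 and Tie1 with Tek each had a partner that was not kept, so no adjustment over pairs was made.

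The surface genes Emcn and Plvap were lower on average in HomoBapx1 cells without passing the test. Emcn read 7.15, 7.17, 7.25 and 7.24 log2 in HomoBapx1 arrays, against 7.88, 7.33, 7.46 and 7.87 in WTBapx1 arrays. The groups did not overlap, and the spread came almost wholly from the WTBapx1 arrays, with an SD of 0.049 in HomoBapx1 and 0.28 in WTBapx1. Its change was -0.44 with a 95% interval from -0.73 to -0.14 (limma adjusted p = 0.11). Plvap read 6.53, 6.10, 5.94 and 6.49 in HomoBapx1 arrays, against 6.87, 6.33, 6.62 and 7.19 in WTBapx1 arrays. The groups overlapped, since HomoBapx1 replicates 1 and 4 lay above WTBapx1 replicate 2, and the change was -0.49 with an interval from -0.93 to -0.048 (adjusted p = 0.24). Each passed in 1 of 22 alternatives, with array weights, at -0.42 for Emcn (adjusted p = 0.043) and -0.62 for Plvap (adjusted p = 0.040). That setting called 1872 probes, against 812 in the main fit. With median absolute deviation scaling Emcn was at -0.405 (adjusted p = 0.98). Plvap moved to -0.24 without HomoBapx1 replicates 2 and 3 (adjusted p = 0.55) and to -0.038 with the Y-linked term (adjusted p = 0.94).

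Of the receptor genes only Tek was above background. Tek read 7.17, 7.30, 7.60 and 7.34 log2 in HomoBapx1 arrays, against 7.35, 7.04, 7.18 and 7.22 in WTBapx1 arrays. It was the one member probe with a positive change, 0.16 with a 95% interval from -0.087 to 0.40 (limma adjusted p = 0.52), and its groups overlapped. HomoBapx1 replicate 3, the lowest array for Esam, Sox18, Plvap and both Pecam1 probes, was the highest for Tek. Neither probe of Kdr was detected on any array: the deposited intensities of the first ran from 46.3 to 59.6 in HomoBapx1 and from 49.8 to 55.8 in WTBapx1 arrays, and those of the second from 56.1 to 62.6 and from 52.8 to 59.8, beside array medians of 57.9 to 70.4. The probe of Tie1 was likewise undetected, at 56.9 to 61.3 in HomoBapx1 and 53.9 to 65.6 in WTBapx1 arrays. No fold change was taken for Kdr or Tie1, and a level under the detection limit of these probes is not shown to be absent.

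Sox18, a SoxF factor of early vessels and of the lymphatic lineage, was the only transcription factor gene of the members above background. It read 6.94, 6.46, 6.15 and 6.35 log2 in HomoBapx1 arrays, against 7.35, 7.26, 6.90 and 7.44 in WTBapx1 arrays. The highest HomoBapx1 array, replicate 1, just exceeded the lowest WTBapx1 array, replicate 3, so that the groups overlapped. Sox18 fell by 0.76 ± 0.17 on the log2 scale (SE, limma adjusted p = 0.042), 1.70-fold lower in HomoBapx1 cells. This was the least firm of the 3 calls: it was lost without HomoBapx1 replicate 2, 3 or 4 and without WTBapx1 replicate 1, 2 or 4 (adjusted p = 0.093 to 0.11), at -0.65 to -0.75. Sox17, which acts in arterial endothelium, was at the edge of detection. Its first probe was detected on no HomoBapx1 array and 1 WTBapx1 array, and its second on no HomoBapx1 array, with levels of 4.63 to 5.05, and on 2 WTBapx1 arrays, with levels of 5.38 and 5.23. Neither entered the test.

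**Figure D2:**
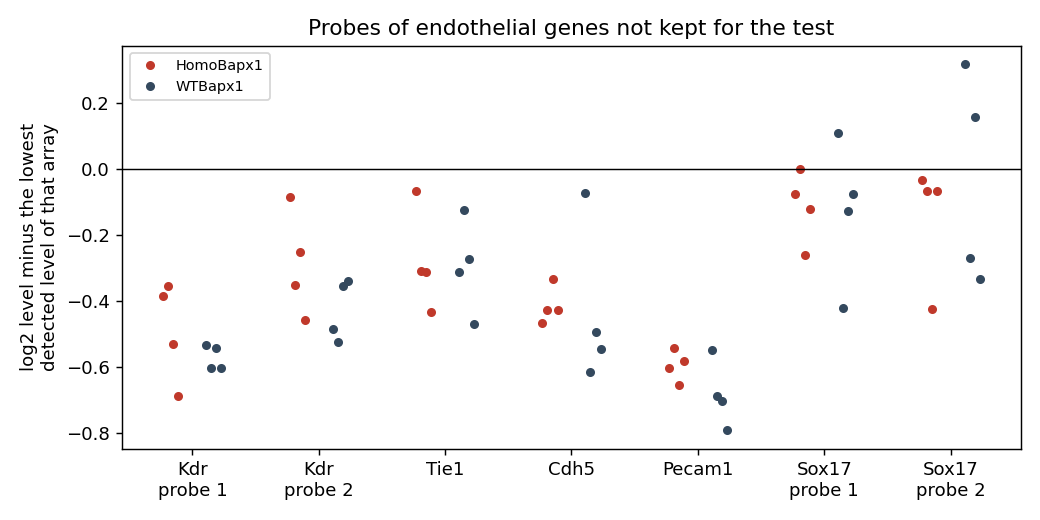
Level of the 7 endothelial probes not kept for the test, as log2 intensity minus the lowest detected level of the same array (vertical axis, 0 marks that level), with HomoBapx1 arrays in red left of WTBapx1 arrays in dark blue for each probe. Points are single arrays; Kdr, Tie1 and the further probes of Cdh5 and Pecam1 stayed below 0 on all 8 arrays, while Sox17 rose above it on 1 WTBapx1 array by its first probe and 2 by its second.

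The promoters of the members were read for the short words that SoxF and ETS factors are known to bind, because Sox18 was among the genes called and ETS factors govern most endothelial genes. RefSeq promoter windows on GRCm38.p6, from 250 bases before to 50 bases after the gene start, matched 4 of the 10 members (Kdr, Tek, Tie1 and Emcn). The words AACAAT and ACAATG stood for Sox factors and CCGGAA and AGGAAG for ETS factors, each sought on both strands (AACAAT and ACAATG can share bases). AACAAT was found in 2 of the 4 windows and in 10.7% of all 32851 promoter windows, ACAATG in 0 of 4 and 12.6%, CCGGAA in 1 of 4 and 14.9%, and AGGAAG in 2 of 4 and 35.4%. The stretches around 1 match in each window, and both AACAAT matches, are shown 5′ to 3′ on the strand of the gene, with the word or its reverse complement in capitals.
Emcn, AACAAT, 50 bases before the start, chr3:137341016-137341045, plus strand: gtaaggggctgaAACAATaaatctcctctc
Emcn, AGGAAG, 93 bases before the start, chr3:137340973-137341002, plus strand: agtggctgccaaAGGAAGagagaggaaaaa
Tek, AACAAT on the opposite strand, 63 bases before the start, chr4:94739214-94739243, plus strand: gaggatacccctATTGTTcctgaaaatgct
Tie1, AGGAAG on the opposite strand, 219 bases before the start, chr4:118490051-118490080, minus strand: ggaagccactggCTTCCTccctttcctgtc
Kdr, CCGGAA on the opposite strand, 153 bases before the start, chr5:75978591-75978620, minus strand: cgcccggcacagTTCCGGggtagtggggga
The 2 windows with AACAAT belonged to Emcn, at -0.44, and to Tek, at 0.16, neither of which passed the test. A match is a description of these letters and not a bound site.

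Within a genotype the members varied together only in part. After each genotype's mean was removed, the mean standardised profile of the 7 members was 0.55 and 0.35 in HomoBapx1 replicates 1 and 4 and -0.38 and -0.52 in HomoBapx1 replicates 2 and 3. In WTBapx1 it was 0.79 and 0.83 in replicates 1 and 4 and -0.88 and -0.75 in replicates 2 and 3. Of 11030 other genes, the 10 closest to this profile by Pearson r over the 8 arrays were Creb3 (0.996), Muc13 (0.953), Cdh1 (0.952), Ctsz, Klk8, Rps24, Slc31a1, Nek4, Slc4a8 and Ephb1 (0.926). They share the same 8 arrays and their normalisation, and none is on the endothelial lists used here. The 10 are the highest of many genes over few arrays, a description from which nothing is read.

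Related genes of the vessel wall were taken from further lists, and most of them did not pass. Of 9 genes of VEGF signalling 7 had a kept probe and none was called (3 at an unadjusted p under 0.05, where 19.1% of all genes lay), with a median log2 change of -0.032. Vegfa, the principal ligand of Kdr, was at -0.032 (adjusted p = 0.91). The largest changes were those of the ligand gene Vegfd at -0.49 (adjusted p = 0.067), the receptor gene Flt1 at -0.40 (adjusted p = 0.12) and the co-receptor gene Nrp1 at 0.24 (adjusted p = 0.23), whose other kept probes gave 0.18 and -0.17 (adjusted p = 0.50 and 0.68). Of 4 genes around the Tek receptor 3 were kept, 2 of them at an unadjusted p under 0.05, and the endothelial phosphatase gene Ptprb, whose product acts on Tek and VE-cadherin, fell by 0.53 ± 0.11 (SE, adjusted p = 0.031). It read 6.49, 6.26, 6.36 and 6.42 in HomoBapx1 arrays, against 6.93, 6.90, 7.17 and 6.65 in WTBapx1 arrays. With median absolute deviation scaling its call was lost (-0.49, adjusted p = 0.45), as were the calls of Gja5, Jag1, Hey2, Tal1, Ets2 and Pdgfb among the genes that follow, but not those of Vwf and Jam2. The ligand genes Angpt1 and Angpt2 were at -0.33 (adjusted p = 0.46) and 0.54 (adjusted p = 0.11).

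Arterial and Notch genes moved in both directions. Of 13 listed, 10 were kept, 1 was lower, 2 were higher and 7 had no call. Over all genes 2.71% were called lower and 2.20% higher. The median of the 10 was 0.036, and 5 had an unadjusted p under 0.05, against 19.1% of all genes. Gja5, which encodes a gap junction protein of arteries, read 5.72, 5.76, 5.64 and 5.58 in HomoBapx1 arrays, against 6.11, 6.75, 6.71 and 6.91 in WTBapx1 arrays, a change of -0.95 ± 0.16 (SE, adjusted p = 0.010). A second Gja5 probe gave -0.79 (adjusted p = 0.035) and the last of 3 kept probes -0.32 (adjusted p = 0.43), while 2 further probes were detected on no array. The Notch ligand gene Jag1, which is not confined to vessels, rose by 0.57 ± 0.10 (adjusted p = 0.015). Hey2, a Notch target, entered the test through its higher group, with detection on 4 HomoBapx1 arrays and 1 WTBapx1 array. It was called higher at 0.84 ± 0.16 (adjusted p = 0.020), a size that rests on WTBapx1 values at background, and by its other probe, detected on 4 HomoBapx1 arrays and on no WTBapx1 array, it was at least 1.37-fold higher. Without a call but at an unadjusted p under 0.05 were Gja4, also a gap junction gene, at -0.57 (adjusted p = 0.096) and Unc5b at 0.50 (adjusted p = 0.20). Of 5 venous and lymphatic genes 4 were kept and none was called (1 at an unadjusted p under 0.05). The lymphatic receptor gene Lyve1 was at -0.55 (adjusted p = 0.20). It was detected on 1 HomoBapx1 and 3 WTBapx1 arrays, so this size rests on HomoBapx1 values mostly at background. The venous factor gene Nr2f2 was at 0.55 (adjusted p = 0.42) by its brightest probe and -0.33 (adjusted p = 0.40) by its other kept probe, and Aplnr was at -0.10 (adjusted p = 0.84). The brightest Nr2f2 probe passed without HomoBapx1 replicates 2 and 3, at 1.16 (adjusted p = 0.018). Of 8 junction partners 6 were kept, and Jam2, a junctional adhesion gene, was the one call and the only one at an unadjusted p under 0.05, with 6.77, 6.66, 6.64 and 6.70 in HomoBapx1 arrays, against 5.22, 5.43, 6.03 and 5.43 in WTBapx1 arrays. Jam2 rose by 1.16 ± 0.15 (adjusted p = 0.0037), opposite in sign to Esam and Cdh5, and stayed past the threshold under every alternative run.

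**Figure D3:**
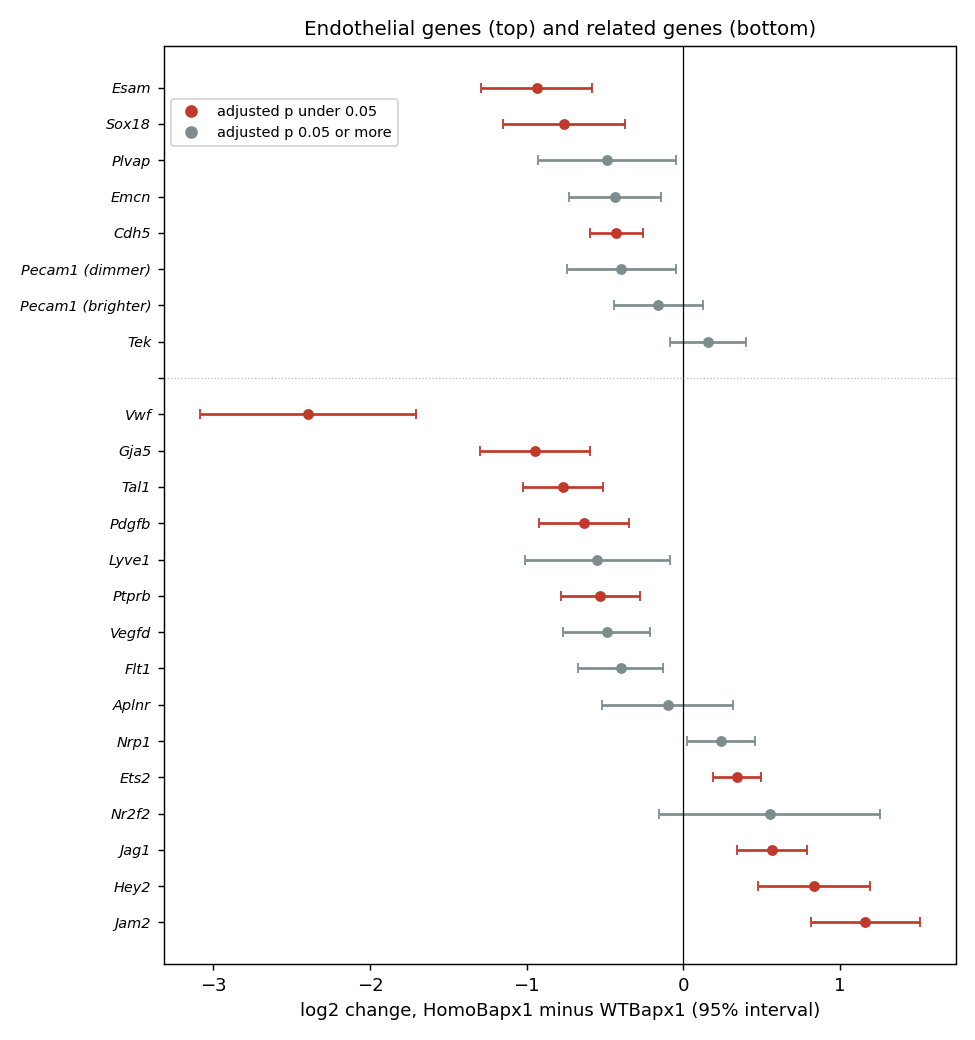
Log2 change of HomoBapx1 minus WTBapx1 (horizontal axis) with its 95% interval from the limma fit (n = 4 arrays per genotype), for the 8 endothelial probes above the dotted line and the named related genes below it. Red marks an adjusted p under 0.05 and grey the rest; among the members Esam, Sox18 and Cdh5 are red, and below the line Vwf reaches -2.39 and Jam2 1.16.

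Among 19 further endothelial genes 12 were kept and 1 was called lower, against 2.71% of all genes called lower and 2.20% higher. The other 11 had no call, and the median of the 12 was -0.19. The call was Vwf, the gene of von Willebrand factor, which endothelium and megakaryocytes both make. It read 6.38, 5.41, 5.21 and 6.37 in HomoBapx1 arrays, against 8.84, 7.97, 7.88 and 8.25 in WTBapx1 arrays, a change of -2.39 ± 0.31 (SE, adjusted p = 0.0032). Of the 12 changes 10 were negative, and 5 had an unadjusted p under 0.05 (19.1% over all genes). Beside Vwf these were Mmrn2 at -0.55, Ramp2 at -0.33, with no overlap between the groups, and Robo4 at -0.35 (adjusted p = 0.12, 0.075 and 0.20), and Eng, which was detected on 4 HomoBapx1 arrays and 1 WTBapx1 array, at 0.34 (adjusted p = 0.078). The broad endothelial markers Cldn5, Cd34 and Egfl7 were at -0.13, 0.070 and -0.073 (adjusted p = 0.76, 0.77 and 0.83). Of 16 transcription factor genes 13 were kept, 1 lower and 1 higher, with a median of 0.047. Of these 13, 8 had an unadjusted p under 0.05 (19.1% over all genes). Tal1, a factor of blood and endothelial precursors, was detected on no HomoBapx1 array and on all 4 WTBapx1 arrays, so it entered the test through its higher group. It was at least 1.19-fold lower in HomoBapx1 cells (the WTBapx1 mean against the lowest detected level of each HomoBapx1 array). The limma adjusted p of 0.0061 belongs not to this bound but to the change of -0.77, which uses HomoBapx1 values under that level. The widely expressed Ets2 rose by 0.34 ± 0.068 (adjusted p = 0.024), and the SoxF gene Sox7 gave -0.47 and 0.035 by its 2 kept probes (adjusted p = 0.089 and 0.92). The rest of the 8 moved in both directions. Lmo2 and Foxc2 were at -0.43 and -0.23 (adjusted p = 0.087 and 0.16). Fli1, Elk3 and Foxc1 were at 0.50, 0.38 and 0.34 (adjusted p = 0.15, 0.14 and 0.26). The groups did not overlap for Lmo2 and Fli1. Of 11 genes listed for mural cells 8 were kept, with a median of 0.0355 and 2 at an unadjusted p under 0.05. Pdgfb, the growth factor by which endothelium recruits these cells, fell by 0.63 ± 0.13 (adjusted p = 0.027). Cspg4 went the other way, at 0.39 with no overlap between the groups (adjusted p = 0.052).

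The kept platelet and macrophage genes were lower in HomoBapx1 cells as well, while no erythroid gene was called. All 10 kept genes of 12 on the platelet and megakaryocyte list were called lower in HomoBapx1 cells, with a median log2 change of -2.67. So were all 10 kept genes of 14 on the macrophage and leukocyte list, with a median of -1.62 (-1.56 with 3 genes at their bound). Over all genes 2.71% were called lower. The summed linear intensity of the platelet genes was 2864, 978, 705 and 2926 in HomoBapx1 replicates 1 to 4, against 18016, 9941, 10227 and 10281 in WTBapx1 replicates 1 to 4. That of the macrophage genes ran from 566 to 826 in HomoBapx1, against 1971 to 3182 in WTBapx1 arrays. The platelet granule gene Pf4 read 8.28 to 10.67 log2 in HomoBapx1 arrays, against 12.39 to 13.29 in WTBapx1 arrays, whereas the platelet receptor gene Gp6 and the macrophage genes C1qb, C1qc and Tyrobp were detected on no HomoBapx1 array. Those 4 genes entered the test through their higher group, and the sizes of their changes rest on HomoBapx1 values at background. Gp1bb, F2rl2, Csf1r and Adgre1 were detected on 2 HomoBapx1 arrays and Itga2b on 3, so their sizes rest partly on such values. Of 11 erythroid genes 7 were kept and none was called (2 at an unadjusted p under 0.05); their median was -0.33.

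The arrays with the fewest platelet transcripts, HomoBapx1 replicates 2 and 3, were also the lowest for Esam, Cdh5, Plvap and Vwf. Over the 8 arrays, with each genotype's mean removed, Esam correlated with the mean platelet level at r = 0.92, the brighter Pecam1 probe at 0.74, Plvap at 0.67, Sox18 at 0.61, Cdh5 at 0.59, Emcn at 0.27 and Tek at -0.33. The dimmer Pecam1 probe stood at 0.48. Other measures moved along as well: with the mean macrophage level Esam correlated at 0.74, the brighter Pecam1 probe at 0.65, Emcn at 0.56 and the rest at 0.21 to 0.47, and with the mean Y-linked level Plvap at -0.73, the dimmer and brighter Pecam1 probes at -0.67 and -0.58, Esam at -0.66, Cdh5 at -0.52, Sox18 at -0.31, Emcn at -0.10 and Tek at 0.40. These values describe 8 arrays that share the split of HomoBapx1 replicates 2 and 3. Esam, Pecam1, Vwf and Tal1 are made in platelets or their precursors as well as in endothelium, and the part of those cells in the lower levels was not tested. Cdh5 and Sox18 are known chiefly from endothelium, and the source of their changes, -0.43 and -0.76, was not tested either.

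**Figure D4:**
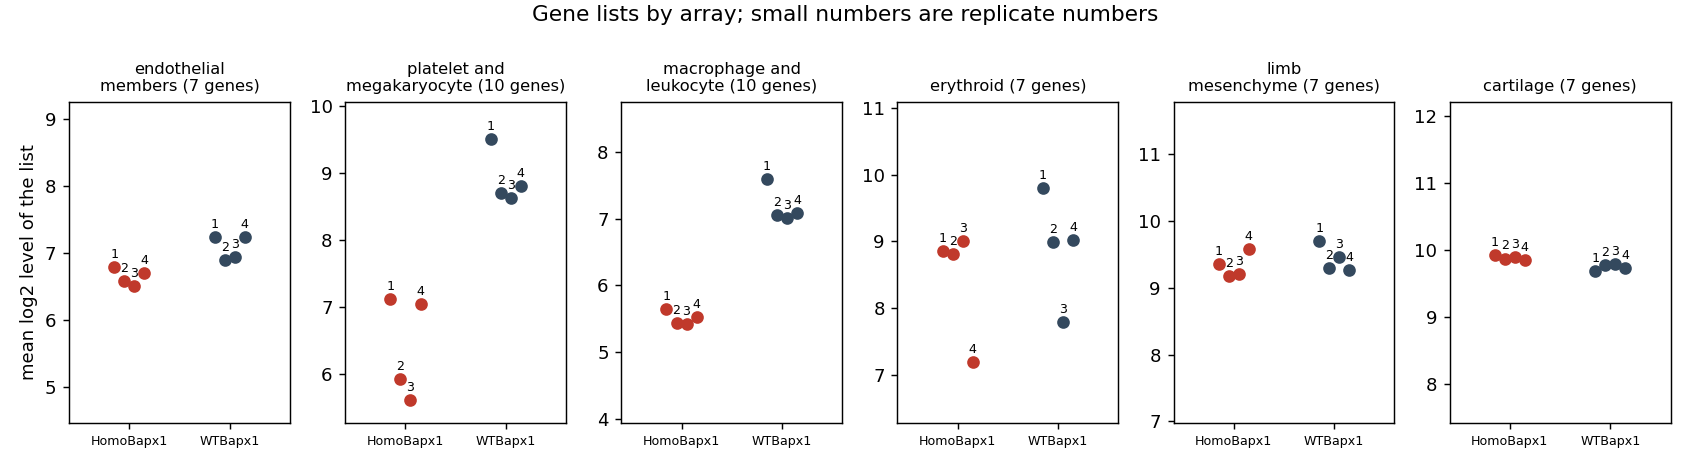
Mean normalised log2 level of the kept genes of each list (vertical axes of equal span) on every array, with HomoBapx1 in red left of WTBapx1 in dark blue and the replicate number over each point. The 7 endothelial members lay at 6.50 to 6.79 in HomoBapx1 and 6.90 to 7.25 in WTBapx1 arrays, the platelet genes at 5.60 to 7.11 and 8.62 to 9.50, and the erythroid, limb mesenchyme and cartilage lists show no call. The cartilage means, 9.86 to 9.93 in HomoBapx1 and 9.68 to 9.79 in WTBapx1 arrays, did not overlap. Of the 7 limb mesenchyme genes kept, 4 had an unadjusted limma p under 0.05, against 19.1% of all genes. The log2 changes of the 7 ran from -0.9 to 0.51, with a median of 0.0092.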

How the data were processed

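RNA of sorted EGFP-positive forelimb cells was hybridised to Illumina arrays, 4 per genotype. The authors deposited the linear intensity of each probe, not normalised between arrays, beside a detection fraction that rises with brightness and was read as 1 minus the detection p-value. A second table deposited by the authors holds log2 values shifted by array medians and by an unstated baseline per probe; its column medians lay between -0.015 and 0.014. The submitters' processing notes name GenomeStudio without a version, and no genome build is given for the probes. Each of the 45281 rows of one table was matched to a row of the other through its pattern over the arrays. The platform annotation, which can be old, names 1 gene for 34885 probes, several for 18 and is silent for 10378.

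Background was corrected with nec of limma (offset 16), arrays were quantile normalised and log2 was taken. Probes with a detection p-value under 0.05 on at least 4 of 8 arrays were kept (20593), and lmFit and eBayes compared the genotypes, two-sided, with Benjamini-Hochberg adjustment over these. All adjusted p-values are from this fit unless named otherwise. For a gene the probe with the highest mean stood for it. The spread between 8 arrays limits the precision. R 4.3.3 and limma 3.58.1 were used, and the chain was tested on simulated arrays. The members and lists were chosen with earlier results of these data known. Named are all members, the called genes of each list or else up to 3 with the largest change, and the 10 genes closest to the member profile. Vegfa, Angpt1, Angpt2, Cldn5, Cd34, Egfl7, Sox7, Mmrn2, Ramp2, Robo4, Eng, Pf4, Gp6, C1qb, C1qc and Tyrobp were added after their values were seen. So were Cspg4, Lmo2, Foxc1, Foxc2, Fli1, Elk3, Gja4, Unc5b, Gp1bb, F2rl2, Csf1r, Adgre1 and Itga2b. Alternatives covered scaling, background correction, the deposited log2 table, filters, array weights, variance models, the replicate block, the methods' t-test, 1 probe a gene, the Y-linked level and left-out arrays. A chip block was not run.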

Additional observations from a re-analysis of the deposited data

Results flagged for a closer look

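In 50 groups of 4 arrays checked among the named results, 3 held 1 array far from the other 3; chance alone gives about 1 in 20. None of them was a member. Flt1 was at 6.54 log2 in HomoBapx1 replicate 1, against 6.31 in the other 3 HomoBapx1 arrays. Nrp1 was at 10.9 in HomoBapx1 replicate 4, against 10.69 to 10.72 in the others. Pdgfb was at 6.58 in WTBapx1 replicate 1, the array with the highest platelet sum, against 6.05 to 6.13 in the others.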

How the results depend on the processing

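The median log2 change of the members stayed negative under all 22 alternatives, and the change of Esam, Cdh5 and Sox18 did as well; their calls held under 19, 16 and 10 of them. With median absolute deviation scaling 115 probes passed (84 lower, 31 higher, against 436 and 376) and 0 member probes in limma (3 at an unadjusted p under 0.05, 6 with quantile normalisation), with adjusted p of 0.28 to 0.78 for the 3 genes. The deposited log2 table passed 333 probes with 2 member probes (Esam and Sox18), array weights 1872 with 5 member probes, the methods' t-test 382 with 1 (Cdh5), the replicate block 433, and the Y-linked term 1556 with 0 member probes in limma (3 unadjusted). Without HomoBapx1 replicates 2 and 3 only 1 member probe passed (Esam), and the Esam minus Cdh5 difference was -0.334 (exact p = 0.13, where the smallest possible is 0.067). Leaving out 1 array gave 449 to 639 probes, 1 to 3 member probes (1 without HomoBapx1 replicate 2) and a pair difference of -0.614 to -0.404 (exact p = 0.029 to 0.057). Reversed values were 0.0521 for the brighter Pecam1 probe and 0.393 for Aplnr with the Y-linked term, and for Aplnr 0.208 without HomoBapx1 replicates 2 and 3 and -0.22 to 0.0257 with 1 array left out (0.0257 without HomoBapx1 replicate 3); the cause was not tested. Replicate numbers did not pair the arrays (correlations of deviations 0.058, 0.24, -0.18 and -0.26; 1 of 8 arrays matched its own number best), and under the block Cdh5 lost its call (adjusted p = 0.067) while Esam and Sox18 kept theirs. Of the other genes called, Ptprb lost its call without HomoBapx1 replicate 2, 3 or 4 or WTBapx1 replicate 1, 2 or 3, and so did Ets2, Pdgfb without HomoBapx1 replicate 1, 2 or 3 or WTBapx1 replicate 3 or 4, and Hey2 without HomoBapx1 replicate 2 or 3 or WTBapx1 replicate 3 (adjusted p up to 0.096, 0.080, 0.080 and 0.061). These 4 also lost it in the deposited log2 table (adjusted p = 0.19, 0.10, 0.17 and 0.084), with the Y-linked term (0.15, 0.096, 0.10 and 0.13) and without HomoBapx1 replicates 2 and 3 (0.11, 0.089, 0.079 and 0.072), and Ptprb, Ets2 and Pdgfb under the block (0.090, 0.13 and 0.064). With the methods' t-test Ptprb, Pdgfb, Hey2, Gja5 and Jag1 lost theirs, and without a filter Ptprb and Pdgfb did (0.053 and 0.052). Kdr, Tie1 and Sox17 could not be compared, because their signal did not rise above background on enough arrays.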
